A study of Mus musculus with 6 samples.

Results

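The type I interferon response genes described here are 9 genes chosen by symbol: the signalling and transcription regulators Stat2, Irf9 and Irf7, the antiviral effectors Ifit1, Ifit2, Ifit3 and Rsad2, the ubiquitin-like modifier Isg15 and the protease Usp18. Of these 9 genes, 8 had at least 1 probe set that the platform annotation gave to 1 symbol, among 12393 such genes in all, and they held 11 of 20380 such probe sets. Isg15 is not analysed here, since it lacked a probe set given to 1 symbol. The values are liver expression on Affymetrix mouse arrays, 1 array per mouse, from 3 TFEB-injected mice and 3 not-injected mice. The injected mice received an adenoviral vector to overexpress TFEB, a transcription factor known for its action on lysosomal genes. All 6 mice were wild type, of C57 background and 1 month old. The labels name no mouse given an empty vector and no promoter of the transgene, so the injection, the vector and TFEB cannot be told apart. The labels do not give the time from injection to harvest.

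Type I interferons are secreted by cells that sense viral nucleic acid, and they act through the receptor subunits IFNAR1 and IFNAR2 and the kinases JAK1 and TYK2. The kinases activate STAT proteins, among them STAT2, which joins IRF9 in a complex that binds response elements in the promoters of antiviral genes. Several of the induced genes act back on the pathway: IRF7 drives more interferon, while USP18 binds IFNAR2 and dampens the signal and also removes ISG15 from proteins. In liver, hepatocytes, Kupffer cells and endothelial cells all can respond to type I interferon, and adenoviral vectors are themselves known to be sensed by innate immunity.

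Hepatocyte genes were the brightest of the marker lists, with mean log2 values over 8 genes of 14.19 to 14.23 in injected and 14.25 to 14.27 in not-injected livers. The probe set of Tfeb read 7.48, 7.78 and 7.46 in injected livers, against 7.50, 7.59 and 7.47 in not-injected livers, and the groups overlapped. No source used here says whether its probes detect the transgene, so this value does not check the labels. RNA spike-ins, which are foreign transcripts added in the laboratory, also differed between the groups. For the poly-A spike-ins (24 probe sets) the median difference, injected minus not-injected, was -0.44 on the log2 scale, with a range of -0.57 to -0.30. For the hybridisation spike-ins (18 probe sets) it was -0.32, with a range of -0.49 to -0.06. All 3 injected arrays lay below all 3 not-injected arrays in 23 of 24 poly-A and 18 of 18 hybridisation probe sets. The labels name no batch, so a batch of labelling or hybridisation cannot be told apart from the injection. The amounts added are not given, and the part of the spike-in shift in the falls described here was not tested. Scalings of the arrays to the poly-A and to the hybridisation spike-ins are therefore given beside the results. They moved the median difference of all genes to 0.39 and 0.26, against -0.05 in the deposited values. The prior degrees of freedom of limma, which set how far each gene's variance is drawn to a common one, were 106.23 after scaling to the poly-A spike-ins, 4.66 after scaling to the hybridisation spike-ins and 3.47 in the deposited values. The p-values after poly-A scaling therefore follow the size of a difference nearly alone.

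Usp18 and Ifit2 were higher in injected livers, while Ifit1, Stat2, Irf7, Irf9 and Rsad2 were lower and Ifit3 did not pass the test. Usp18 rose 4.49-fold and Ifit2 1.73-fold, and Ifit1 was 2.16-fold lower. The other 4 lower members differed by 1.44-fold to 1.49-fold. By limma at an adjusted p under 0.05, 2 of 8 members were higher, beside 14.2% of all genes, and 5 of 8 were lower, beside 13.9% of all genes. The groups did not overlap in any of the 8 members, a pattern found in 46.2% of all genes. The median difference of the 8 members was -0.54, beside -0.05 over all genes. The members were chosen with earlier results of these data known, so these counts and this median are a description, not a test. After scaling to the hybridisation spike-ins Usp18 and Ifit2 were called higher, beside 47.8% of all genes, and Ifit1 and Irf7 lower, beside 3.11% of all genes. With the poly-A spike-ins as the scale Usp18 and Ifit2 were called higher, beside 56.3% of all genes, and Ifit1 lower, beside 1.72% of all genes. Stat2, Irf9 and Rsad2 passed after neither scaling.

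**Figure D1:**
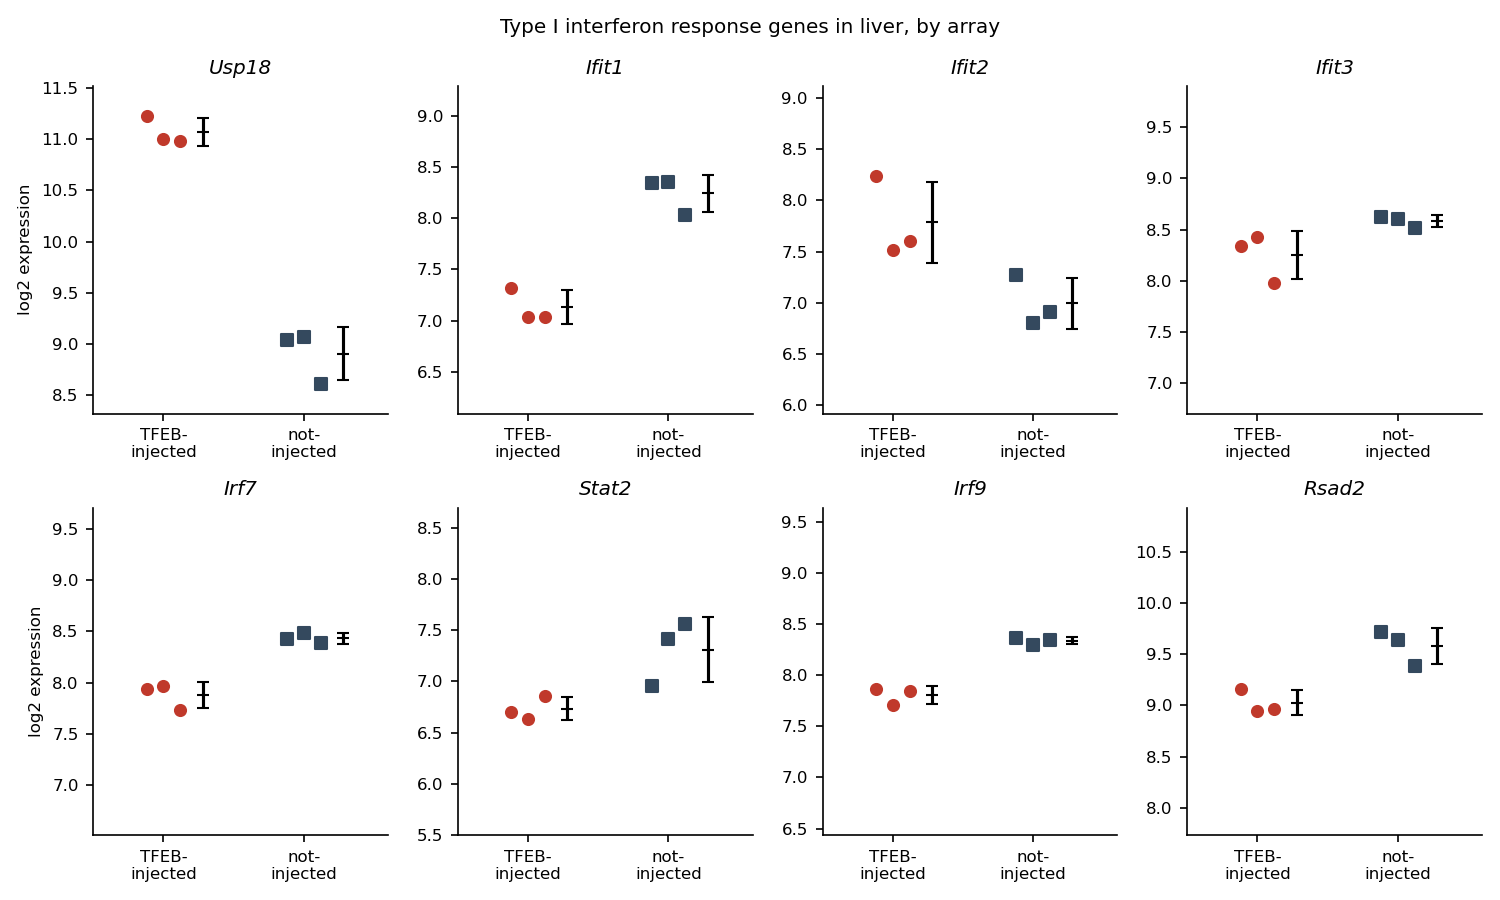
Log2 expression of the 8 measured members on each array, injected livers as red circles and not-injected livers as blue squares, with the mean and SD of each group (n = 3) at the right of its points. Every panel spans the same number of log2 units. Usp18 and Ifit2 lie higher in injected livers and the other 6 lower, with no overlap in any panel; after scaling to the poly-A spike-ins Ifit3 changes direction (0.10).

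Stat2 and Irf9 encode subunits of the complex that carries the interferon signal to DNA. Stat2 (probe set 1421911_at) read 6.71, 6.64 and 6.86 in injected livers, against 6.95, 7.41 and 7.56 in not-injected livers. All 3 injected livers lay below the lowest not-injected liver, by 0.09 at the closest. The difference was -0.57 ± 0.15 (SE, limma adjusted p = 0.0292), and the spread was wider in not-injected livers (SD 0.32) than in injected livers (SD 0.11). A second probe set of Stat2 (1450403_at), tested among all probe sets, read 5.55, 5.62 and 5.41 in injected livers, against 5.90, 6.08 and 5.99 in not-injected livers. It fell by 0.46 (adjusted p = 0.00609), at levels close to the lower quartile of the arrays (5.46 to 5.56), where RMA compresses differences. The call of the first probe set was lost without injected replicate 1 (adjusted p = 0.0854) or 3 (0.0503), and without not-injected replicate 2 (0.102) or 3 (0.09).

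Irf9 had the smallest spread of the 8 members in not-injected livers. Its probe set 1421322_a_at read 7.87, 7.71 and 7.84 in injected livers, against 8.36, 8.30 and 8.35 in not-injected livers. The gap between the groups was 0.43, wider than the range within either group. The difference was -0.53 ± 0.07 (adjusted p = 0.00193).

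Irf7, the transcription factor that amplifies interferon production and is itself induced by interferon, differed by a similar amount. Its probe set 1417244_a_at read 7.94, 7.97 and 7.74 in injected livers, against 8.43, 8.49 and 8.38 in not-injected livers. The 3 injected livers were all lower, with a gap of 0.41. The difference was -0.55 ± 0.08 (adjusted p = 0.003). The falls of Stat2, Irf9 and Irf7 lay close to the lower end of the spike-in range (-0.57). After scaling to the hybridisation spike-ins Irf7 still passed (-0.24, adjusted p = 0.0304), and Irf9 (-0.22, adjusted p = 0.0878) and Stat2 (-0.27, adjusted p = 0.205) did not. After scaling to the poly-A spike-ins none of these 3 passed by limma, with adjusted p-values of 0.44 to 0.585.

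Ifit1, Ifit2 and Ifit3 encode related tetratricopeptide-repeat proteins that bind viral RNA or act with those that do. In the RefSeq gene table they lie on chromosome 19 in the order Ifit2, Ifit3, Ifit1, with Ifit1bl1, Ifit3b and Ifit1bl2 between Ifit3 and Ifit1. Their annotated promoter windows are shown because Ifit2 and Ifit1 differed in direction, and the windows differed in matches to the interferon-stimulated response element. A link between direction and matches was not tested. Each window runs from 250 bases before to 50 after the annotated start (RefSeq, GRCm38.p6), 5′ to 3′ on the strand of the gene. Capitals mark matches to the response element core on either strand, which is GAAA, any 2 bases and GAAA again.
Ifit1, chr19:34640639-34640938, plus strand: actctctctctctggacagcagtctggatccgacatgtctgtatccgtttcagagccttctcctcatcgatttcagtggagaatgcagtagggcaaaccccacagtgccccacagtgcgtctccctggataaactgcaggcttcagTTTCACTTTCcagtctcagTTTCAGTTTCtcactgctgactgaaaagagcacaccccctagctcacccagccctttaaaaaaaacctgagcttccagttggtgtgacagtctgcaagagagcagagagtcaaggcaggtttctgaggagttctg
Ifit3, chr19:34583279-34583578, plus strand: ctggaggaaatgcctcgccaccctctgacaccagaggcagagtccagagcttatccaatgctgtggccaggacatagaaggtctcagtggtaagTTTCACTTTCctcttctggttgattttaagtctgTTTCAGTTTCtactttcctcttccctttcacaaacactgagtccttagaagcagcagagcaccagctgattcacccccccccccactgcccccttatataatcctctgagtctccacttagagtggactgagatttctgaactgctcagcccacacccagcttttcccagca
Ifit2, first annotated start, chr19:34550444-34550743, plus strand: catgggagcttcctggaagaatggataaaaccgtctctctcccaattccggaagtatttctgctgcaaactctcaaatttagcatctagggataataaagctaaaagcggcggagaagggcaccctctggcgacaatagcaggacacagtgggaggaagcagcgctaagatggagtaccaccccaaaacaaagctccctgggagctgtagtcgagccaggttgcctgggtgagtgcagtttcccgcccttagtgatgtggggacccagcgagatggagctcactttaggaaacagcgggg
Ifit2, second annotated start, chr19:34550838-34551137, plus strand: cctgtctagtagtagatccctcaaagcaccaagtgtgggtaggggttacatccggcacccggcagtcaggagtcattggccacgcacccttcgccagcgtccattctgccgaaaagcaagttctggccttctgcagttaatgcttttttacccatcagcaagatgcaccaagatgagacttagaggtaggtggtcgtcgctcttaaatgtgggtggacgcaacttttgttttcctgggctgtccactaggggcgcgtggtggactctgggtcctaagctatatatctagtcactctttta

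The windows of Ifit1 and Ifit3 held 2 matches each, and both windows of Ifit2 held 0. In Ifit1 the matches began 104 and 85 bases before the start, and in Ifit3 156 and 122 bases before it. A window without a match says only that these letters were not in it.

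Ifit1, whose protein binds viral RNA that lacks the host cap methylation, was the member with the largest fall. Its probe set 1450783_at read 7.32, 7.03 and 7.04 in injected livers, against 8.35, 8.35 and 8.03 in not-injected livers. The gap between the groups was 0.71. The difference was -1.11 ± 0.12 (adjusted p = 0.000889), and 99 genes of 12393 had a more negative difference. It lay below the whole spike-in range, and it passed after scaling to the hybridisation spike-ins (-0.81, adjusted p = 0.0014). The difference was -0.68 after scaling to the poly-A spike-ins, in a fit whose p-values follow size nearly alone.

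Ifit2 went the other way. Its probe set 1418293_at read 8.24, 7.51 and 7.61 in injected livers, against 7.27, 6.80 and 6.91 in not-injected livers. Injected replicate 1 stood above the other injected livers, and the lowest injected value was 0.24 above the highest not-injected value. The difference was 0.79 ± 0.20 (adjusted p = 0.026). The call was lost without not-injected replicate 2 (0.70, adjusted p = 0.095) or 3 (0.75, adjusted p = 0.086). Without injected replicate 1 the difference was 0.57.

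Ifit3, which in human cells stabilises the binding of viral RNA by IFIT1, was the member that did not pass. Its probe set 1449025_at read 8.34, 8.42 and 7.98 in injected livers, against 8.62, 8.61 and 8.52 in not-injected livers. The groups were apart by 0.09. The difference was -0.33 ± 0.12 (adjusted p = 0.0702), with a 95% interval of -0.61 to -0.06 before adjustment. It passed without injected replicate 2 (-0.42, adjusted p = 0.0237), and it read 0.10 after scaling to the poly-A spike-ins (adjusted p = 0.561). Ifit3b is a close copy of Ifit3 without a probe set of its own under this rule; whether the Ifit3 probes also read it was not tested.

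The difference between neighbours was set out as a log ratio on each array, from which a shift common to a whole array drops out. These pairs were chosen after their values were seen. Ifit2 minus Ifit1 was 0.92, 0.48 and 0.57 in injected livers, against -1.07, -1.55 and -1.12 in not-injected livers. That is a change of 1.91 log2 units. Ifit2 minus Ifit3 averaged -0.46 ± 0.41 in injected and -1.59 ± 0.23 in not-injected livers (SD, n = 3 each), a change of 1.13. Ifit3 minus Ifit1 averaged 1.12 ± 0.24 in injected and 0.34 ± 0.13 in not-injected livers (SD, n = 3 each), a change of 0.78. The last ratio follows from the other 2, and all 3 are given as a description, with no test.

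Rsad2 encodes viperin, an enzyme that makes a chain-terminating nucleotide and restricts many viruses. It was measured by 3 probe sets, and all 3 were lower in injected livers. The brightest, 1436058_at, read 9.16, 8.95 and 8.97 in injected livers, against 9.72, 9.64 and 9.39 in not-injected livers. The closest values of the groups were 0.22 apart. The difference was -0.56 ± 0.11 (adjusted p = 0.00854). The other probe sets, 1421009_at and 1421008_at, tested among all probe sets, read -0.63 ± 0.13 (adjusted p = 0.0123) and -0.44 ± 0.10 (adjusted p = 0.015). The brightest probe set, 1436058_at, did not pass after scaling to the hybridisation spike-ins (-0.25, adjusted p = 0.0935) or to the poly-A spike-ins (-0.12, adjusted p = 0.478). The promoter window of Rsad2 held 1 response element core, 120 bases before the start, and is shown as a lower member with a single match.
Rsad2, chr12:26456403-26456702, minus strand: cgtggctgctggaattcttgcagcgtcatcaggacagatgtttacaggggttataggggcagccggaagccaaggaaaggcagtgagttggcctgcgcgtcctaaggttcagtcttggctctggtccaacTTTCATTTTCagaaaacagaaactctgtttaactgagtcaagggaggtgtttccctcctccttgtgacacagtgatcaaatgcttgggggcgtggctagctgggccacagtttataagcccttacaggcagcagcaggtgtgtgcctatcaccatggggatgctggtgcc

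Usp18 stood apart from the other members in size. Its probe set 1418191_at read 11.23, 11.00 and 10.99 in injected livers, against 9.04, 9.07 and 8.61 in not-injected livers. The lowest injected liver was 1.92 log2 units above the highest not-injected liver, a gap larger than the difference of any other member. The difference was 2.17 ± 0.14 (adjusted p = 0.00011), and 80 genes of 12393 had a larger rise. It ran from 2.02 to 2.60 over all alternatives, scaling to the spike-ins included, and passed in each. Usp18 has a single probe set, so no second measurement of it stands beside this one.

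**Figure D2:**
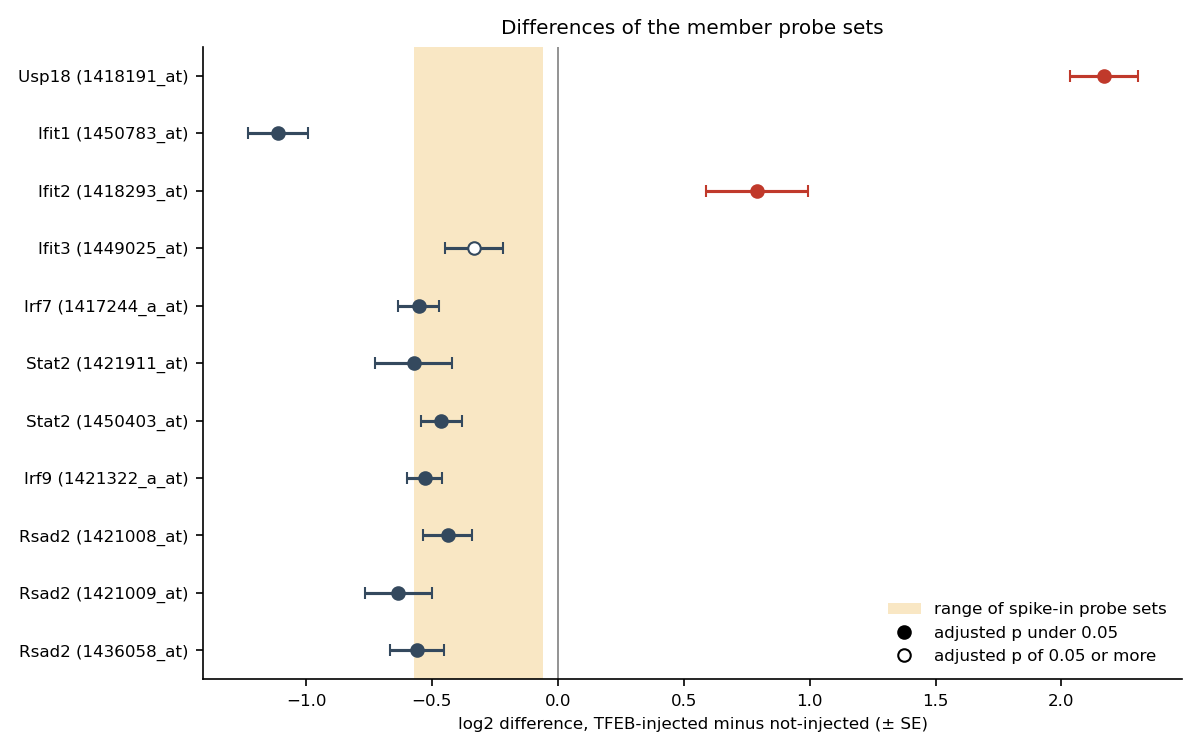
Difference in log2 expression (injected minus not-injected, ± SE of the fit over all probe sets) for the 11 member probe sets, with the range of the 42 spike-in probe sets as a shaded band. Filled points passed at an adjusted p under 0.05. Usp18 (2.17) and Ifit2 (0.79) lie above 0 and Ifit1 (-1.11) lies below the band, while the probe sets of Irf7, Stat2, Irf9 and Rsad2 lie in the band or just below its lower end; Ifit3 turns to 0.10 after scaling to the poly-A spike-ins.

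Over the 11 member probe sets, 2 were higher and 8 lower at an adjusted p under 0.05, beside 12.9% of all probe sets higher and 13.1% lower in that fit. Probe sets of 1 gene are not independent.

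The promoter windows of 7 measured members were found in the RefSeq table, 9 windows in all since Ifit2 and Irf9 have 2 annotated starts each. None was found for Usp18, so its promoter was not searched for any motif. The response element core was present in 4 of the 9 windows, those of Ifit1, Ifit3, Rsad2 and Stat2, beside 3.44% of all 32851 promoter windows. The genes were chosen as interferon response genes, and an excess of the core was not tested. The core of the gamma-activated site, TTC, any 3 bases and GAA, which dimers of STAT proteins bind, was present in 1 window, that of the first start of Ifit2, beside 8.3% of all windows. The letters CACGTG, the core of the E-box bound by TFEB and its relatives, were in 0 of the 9 windows, beside 7.15% of all windows. Both strands were searched, and matches to different motifs did not overlap in these windows. The genes with a response element core included 3 called lower and Ifit3, which did not pass. Irf7 and Irf9, without a core in their windows, were also called lower, and Ifit2, also without one, was higher. A link between the core and the direction of the difference was not tested.

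**Figure D3:**
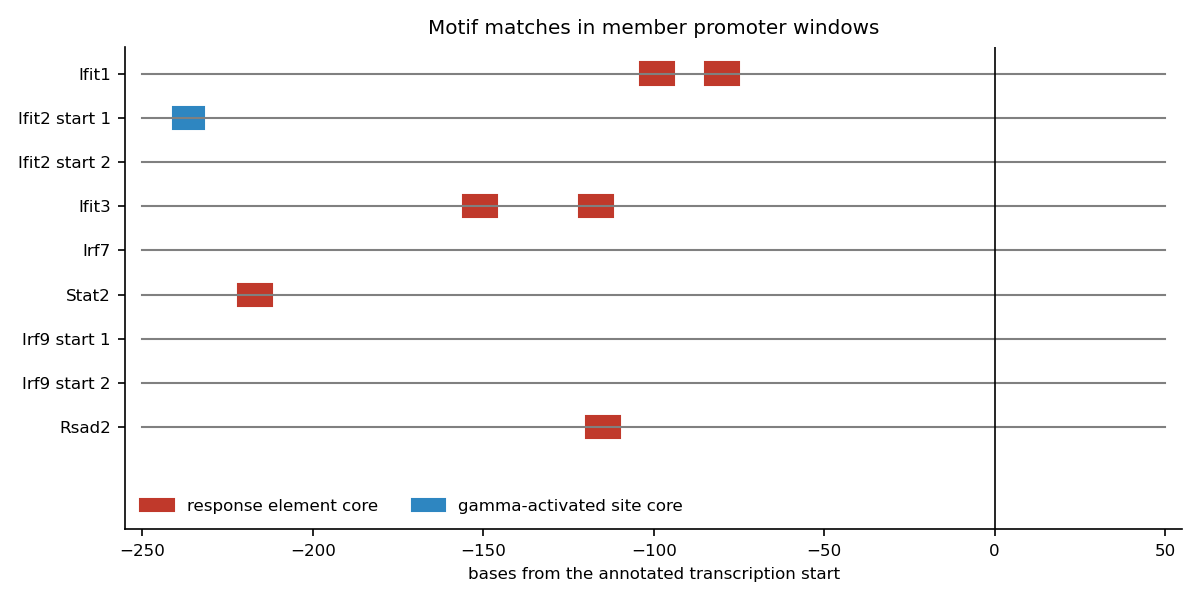
Matches to the interferon-stimulated response element core (red) and to the gamma-activated site core (blue) in the 9 promoter windows of 7 members. Positions are distances in bases from the annotated start, and no window was found for Usp18. Ifit1 and Ifit3 hold 2 response element cores each, Stat2 and Rsad2 1 each, and the windows of Ifit2, Irf7 and Irf9 hold 0.

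Other genes of the pathway were read from 7 lists, also chosen with earlier results of these data known, with the members left out. Of 124 genes in these lists together, 16 were higher (12.9%), 28 lower (22.6%) and 80 did not pass, beside 14.2% higher and 13.9% lower among all genes. Their median difference was -0.07, beside -0.05 over all genes. The balance of the counts moved with the scaling, in these lists and in all genes. Scaled to the hybridisation spike-ins, 60 list genes were higher (48.4%) and 8 lower (6.45%), beside 47.8% and 3.11% of all genes. Scaled to the poly-A spike-ins, 65 were higher (52.4%) and 2 lower (1.61%), beside 56.3% and 1.72% of all genes. Of the 28 genes called lower in the deposited values, 8 were still lower after the first scaling and 2 after the second, the others did not pass, and 0 were called higher.

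The genes of the interferons themselves were dim. Of 9 measured ligand genes, 4 averaged below the lower quartile of every array in both groups. By limma 0 were higher, beside 14.2% of all genes, 1 was lower, beside 13.9%, and 8 did not pass. At an unadjusted p under 0.05 the counts were 0 higher and 2 lower. Ifna2 was the called one, at 6.32 ± 0.16 in injected and 6.83 ± 0.24 in not-injected livers (SD, n = 3 each; -0.51, adjusted p = 0.028), and it did not pass after scaling to the poly-A spike-ins (-0.07). The scalings gave 2 (hybridisation) and 3 (poly-A) higher ligand genes and 0 lower, when 47.8% and 56.3% of all genes were higher. Ifnb1, which encodes interferon beta, averaged 5.32 in injected and 5.48 in not-injected livers (adjusted p = 0.127). The table holds no detection calls, and none of these genes was called absent.

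In the receptor and kinase list 2 of 7 genes were higher and 2 lower, beside 14.2% and 13.9% of all genes. Jak1, which encodes a kinase bound to IFNAR2, read 10.47, 10.01 and 10.37 in injected livers, against 9.59, 9.54 and 9.55 in not-injected livers (0.73, adjusted p = 0.00464). Ifnar2 itself fell by 0.29 (adjusted p = 0.0209), and Kpna1, an importin, fell by 0.37 (adjusted p = 0.0135). Both turned upward after scaling to the poly-A spike-ins, to 0.14 and 0.06, and neither passed there. After each scaling 5 of the 7 genes in this list were higher and 0 lower, when 47.8% (hybridisation) and 56.3% (poly-A) of all genes were higher.

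Among 19 sensors, adaptors and interferon regulatory factors, 2 were higher and 4 lower, beside 14.2% and 13.9% of all genes. Irf5, a regulatory factor of myeloid cells, fell by 0.89 (adjusted p = 0.000571) and passed too after scaling to the hybridisation spike-ins (-0.58, adjusted p = 0.00149), with -0.45 after scaling to the poly-A spike-ins. Irf3, which switches on interferon beta, read 9.66, 9.62 and 9.64 in injected livers, against 10.10, 10.09 and 10.12 in not-injected livers. Its difference was -0.47 (adjusted p = 0.00158), and it was -0.03 (adjusted p = 0.857) after scaling to the poly-A spike-ins. Dhx58, which encodes the RNA-binding regulator LGP2, fell by 0.58 (adjusted p = 0.0169), and it too did not pass after that scaling (-0.15). After each scaling 11 of the 19 genes were higher and 1 lower. Of all genes 47.8% were higher and 3.11% lower after the hybridisation scaling, and 56.3% and 1.72% after the poly-A scaling.

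Of 14 other negative regulators of the pathway 2 were higher, 1 was lower and 11 did not pass. Among all genes 14.2% were higher and 13.9% lower. After each scaling 9 of the 14 were higher and 0 lower, when 47.8% (hybridisation) and 56.3% (poly-A) of all genes were higher. Socs3, an inhibitor of Janus kinases, rose 3.04-fold, with 8.58, 9.40 and 9.78 in injected livers, against 7.85, 7.76 and 7.33 in not-injected livers (adjusted p = 0.00683). Ptpn2, a phosphatase that acts on JAK1, rose 1.49-fold (0.57, adjusted p = 0.004). Nlrx1, which restrains signalling by mitochondrial antiviral adaptors, fell by 0.34 (adjusted p = 0.0224) and turned to 0.09 after scaling to the poly-A spike-ins. Among 3 other genes of ISG15 conjugation, the conjugating enzyme Ube2l6 fell by 0.56 (adjusted p = 0.00307), and the other 2 did not pass. Ube2l6 still passed limma after scaling to the hybridisation spike-ins (-0.25, adjusted p = 0.0274). It did not pass after scaling to the poly-A spike-ins (-0.13, adjusted p = 0.457).

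The largest list held 58 genes induced by type I interferon, members left out, of which 6 were higher, 17 lower and 35 did not pass. Some of them, such as Dhx58 and Ube2l6, also stand in the sensor or ISG15 lists and are counted again here. Among all genes 14.2% were higher and 13.9% lower. The nucleotide kinase Cmpk2 fell by 0.66 (adjusted p = 0.00193). The membrane protein Ifitm3, which blocks virus entry, fell by 0.62 (adjusted p = 0.000993). Nampt, an enzyme of NAD synthesis, was higher by 0.96 (adjusted p = 0.000457). The list median was -0.09. After scaling to the hybridisation spike-ins 23 genes were higher and 4 lower, and after scaling to the poly-A spike-ins 27 were higher and 1 lower, when 47.8% and 56.3% of all genes were higher and 3.11% and 1.72% lower. Cmpk2 (-0.35, adjusted p = 0.0269) and Ifitm3 (-0.31, adjusted p = 0.0115) still passed limma after scaling to the hybridisation spike-ins. They read -0.23 and -0.19 after scaling to the poly-A spike-ins and did not pass there.

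The interferon gamma list, the one nearest in kind, had 4 of 28 genes higher and 4 lower, with a median of -0.08. These counts were near the shares of all genes, 14.2% higher and 13.9% lower. The called genes that were higher included the MHC class I genes H2-D1 (0.61, adjusted p = 0.00327) and H2-K1 (0.39, adjusted p = 0.00481) and the receptor subunit Ifngr2 (0.84, adjusted p = 0.00174). The 4 lower genes, named after their values were seen, were the interferon-inducible GTPases Igtp (-0.79, adjusted p = 0.0117), Irgm1 (-0.62, adjusted p = 0.00492) and Iigp1 (-0.40, adjusted p = 0.00832) and the chemokine Cxcl11 (-0.76, adjusted p = 0.00961). Scaled to the hybridisation spike-ins, 14 genes of the list were higher and 3 lower, beside 47.8% and 3.11% of all genes. After scaling to the poly-A spike-ins 14 were higher and 0 lower, beside 56.3% and 1.72%. The difference between this list and the type I list was not tested. Some genes stand in both lists.

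**Figure D4:**
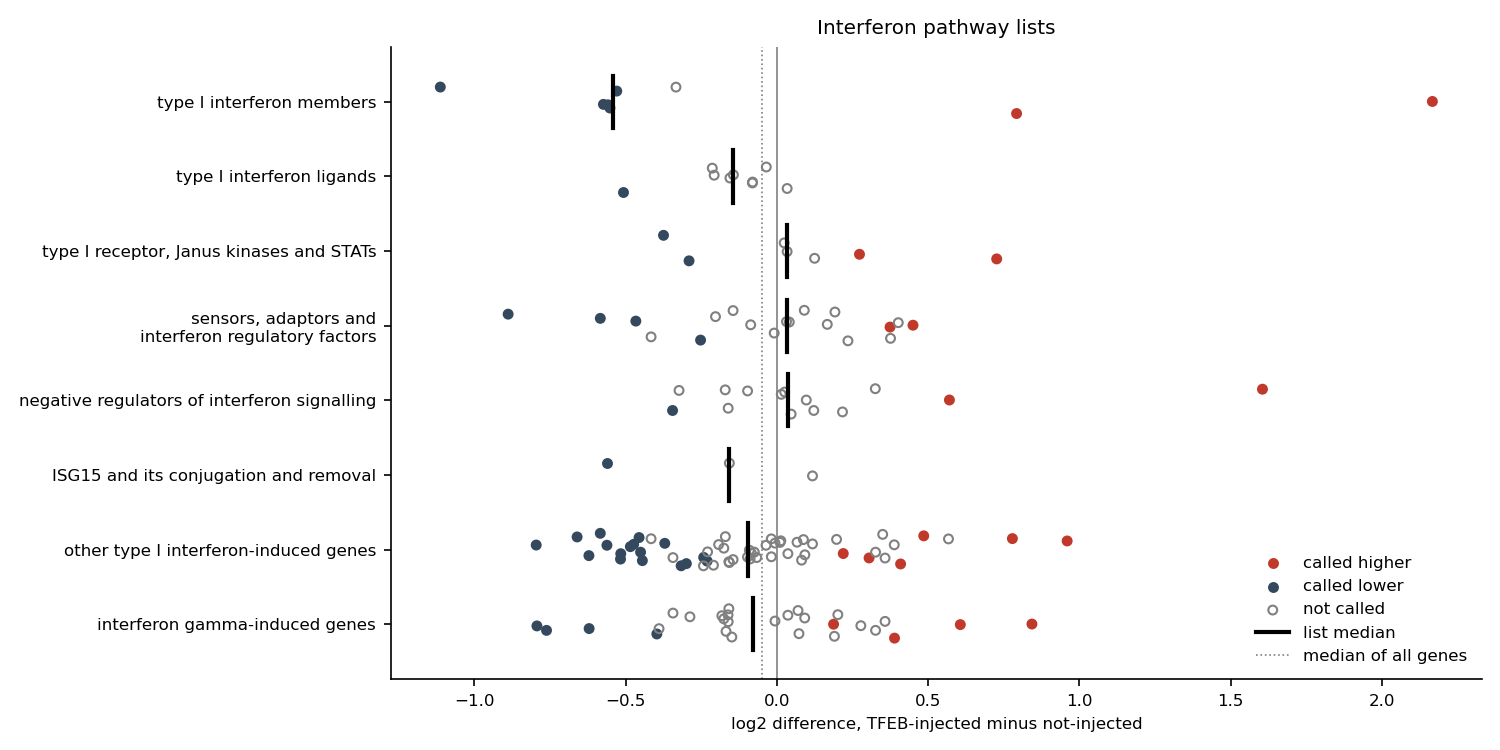
Difference in log2 expression (injected minus not-injected) of each gene in the 8 measured members and in 7 interferon lists, with the members left out of the lists. Filled points passed limma at an adjusted p under 0.05, black bars are list medians and the dotted line is the median of all genes (-0.05). Called genes lie on both sides of 0 in 5 of the 7 lists, and after scaling to the poly-A spike-ins 65 of the 124 list genes are higher (52.4%) and 2 lower (1.61%), beside 56.3% and 1.72% of all genes.

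Markers of cell types that make or answer interferon were read beside these values. Since these are whole livers, fewer cells of a type and less RNA per cell cannot be told apart. Of 10 sinusoidal endothelial markers 6 were higher and 0 lower by limma, beside 14.2% higher and 13.9% lower among all genes. At an unadjusted p under 0.05 the counts were 8 and 0. The mean log2 level of these markers was 8.93 to 9.14 in injected and 8.41 to 8.50 in not-injected livers. Lyve1 of that list rose by 2.10 (adjusted p = 0.000201) and Flt4 by 0.66 (adjusted p = 0.000751). The Kupffer cell and macrophage list had 14 measured markers, of which 3 were higher and 2 lower, beside 14.2% and 13.9% of all genes. Its mean levels overlapped, at 9.019 to 9.269 in injected and 8.996 to 9.353 in not-injected livers. Mpeg1 was higher by 0.72 (adjusted p = 0.00145) and the scavenger receptor Cd163 fell by 3.62 (adjusted p = 0.000122). After each of the spike-in scalings, when 47.8% and 56.3% of all genes were higher, 10 of the 10 endothelial markers were higher, and 11 of the 14 Kupffer cell and macrophage markers were higher and 2 lower.

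The other immune lists were dim. Of 10 monocyte and neutrophil markers S100a8 was higher (0.74, adjusted p = 0.047) and Fn1, which hepatocytes also express, lower (-0.33, adjusted p = 0.0309; 0.11 after scaling to the poly-A spike-ins), and mean levels were 6.70 to 6.97 in injected and 6.65 to 6.77 in not-injected livers. Of 17 T cell and natural killer cell markers Klrd1 alone passed (0.58, adjusted p = 0.0353), and of 7 B and plasma cell markers Jchain alone (0.59, adjusted p = 0.00925). Their mean levels were 5.58 to 5.76 and 5.91 to 6.02 in injected livers, against 5.63 to 5.72 and 5.74 to 5.94 in not-injected livers. Of 5 markers of plasmacytoid dendritic cells, which can secrete type I interferon, 0 passed limma. At an unadjusted p under 0.05, 1 was higher (Irf8, 0.23, adjusted p = 0.0836). In both groups 3 of these 5 markers, and 8 of the 17 T cell and natural killer cell markers, averaged below the lower quartile of every array. The mean level of the dendritic cell list was 6.11 to 6.24 in injected and 6.06 to 6.11 in not-injected livers. After each of the scalings 5 of the 5 dendritic cell markers, 5 of the 7 B and plasma cell markers and 4 of 8 hepatocyte markers were higher and 0 lower. Of the T cell and natural killer cell markers 7 were higher after scaling to the hybridisation spike-ins and 11 after scaling to the poly-A spike-ins. Of the monocyte and neutrophil markers 5 and 6 were higher, with 0 lower in any of these. Of all genes 47.8% and 56.3% were higher after these scalings. In the deposited values, of the 8 hepatocyte markers Apob was higher (0.29, adjusted p = 0.0246) and 7 did not pass. The part of these cell types in the differences of the interferon genes was not tested.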

How the data were processed

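The deposited table holds log2 values per probe set for 6 arrays. Per the submitters' processing notes the values came from RMA and the R package affy; versions are not given. RMA usually makes the arrays' distributions alike, and it compresses low values. Filters are not given in the sources used here. The number of arrays limits the precision.

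Of 22690 probe sets, 64 were controls, 20380 had 1 gene symbol, 691 several and 1555 none in the platform annotation. Where a gene had several, the one brightest on average over the 6 arrays was used. RefSeq's gene table (GRCm38.p6) held the gene identifiers of 12369 of the 12393 genes and changed 0 symbols. Differences, injected minus not-injected, were fitted with limma (version 3.58.1, R 4.3.3; lmFit, eBayes, prior degrees of freedom 3.47) on all 6 arrays, without a covariate or a filter. The two-sided p-values were adjusted by Benjamini-Hochberg over all genes, or over all probe sets where stated, and called means an adjusted p under 0.05. Where a mean has no other label, ± is the SE of the fit. The labels call the samples biological replicates. The scripts were tested on simulated data.

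The members and lists were chosen with earlier results of these data known. All members were named, with up to 3 called genes of smallest p and separate groups from each pathway list, 2 from each marker list, and the gene of smallest p where none was called; Ifnb1 was added after its value was seen. Alternatives are given in the closing section. Promoter windows came from RefSeq. Tables and plots were made in Python 3.11.15 (pandas 2.3.3, matplotlib 3.10.9).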

Additional observations from a re-analysis of the deposited data

How the results depend on the processing

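Over 16 alternatives Usp18, Ifit1 and Ifit2 kept their direction, Ifit2 over the 15 that gave it a value, and Usp18 and Ifit1 passed in all. Rsad2, Irf7 and Irf9 lost their call only after scaling to spike-ins (adjusted p up to 0.585 for Irf9), and Stat2 lost it there and without any of 4 arrays. Scaling to spike-ins was chosen after seeing the data. Scaling to the hybridisation spike-ins gave 6309 called genes, 4 called members and, in the pathway lists, 60 higher and 8 lower. Scaling to the poly-A spike-ins gave 7193 called genes, 3 called members and 65 higher and 2 lower, with prior degrees of freedom of 106.23, and Ifit3 read 0.10. Every probe set tested by itself gave 5302 calls of 20380 (12.9% higher, 13.1% lower), beside 3486 of 12393 genes (14.2% higher, 13.9% lower). More features were tested in that fit. The cause of these moves was not tested. Leaving out each array in turn gave 1973 to 4378 called genes, 5 to 8 called members, and in the pathway lists 7 to 23 higher and 15 to 35 lower, with fewer samples in each fit. The lowest counts of called genes came without not-injected replicate 2 (1973), not-injected replicate 3 (2032) and injected replicate 1 (2103). Lower calls in the pathway lists were 16 without injected replicate 3 and 17 without not-injected replicate 1. Ifit3 passed after a second quantile normalisation (-0.41), centring on the array median (-0.40) and array weights (-0.36). With the replicate number as a block 8 members and 3348 genes were called, and Ifit3 passed (adjusted p = 0.0442), the one member whose call the block changed. Same-numbered arrays had correlations of deviations of 0.01 to 0.14, against -0.16 to 0.08 for arrays of different numbers. With 3 arrays per group these values cannot show whether same-numbered arrays share more than a number. Stat2 and Ifit2 gave no value when genes below the median level were left out.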
